A study of Mus musculus with 4 samples.

Results

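The constitutive proteasome genes were read in LPS-stimulated splenic B cells that carried or lacked a functional *Nfkbiz* gene, which encodes the nuclear IκB protein IκB-ζ. They were taken as every gene whose symbol begins with *Psma* to *Psmg* and a digit, without the inducible subunits *Psmb8*, *Psmb9* and *Psmb10* and the activator genes *Psme1* and *Psme2*, provided that 1 or more samples scored 0.005 or higher. Of 49 genes with such a symbol, 5 were left out by name and 2 stayed under the minimum, which left 42 of the 30041 genes in the files. *Psma8*, the testis form of a core subunit, scored at most 0.0002, and *Psmb11*, the thymic epithelial catalytic subunit, scored at most 0.00289. The 42 genes hold all 14 core particle subunits on the list (*Psma1* to *Psma7* and *Psmb1* to *Psmb7*), 17 subunits of the regulatory particle, 7 assembly chaperones, and 3 activators or inhibitors. The remaining gene, *Psmc3ip*, encodes a meiotic recombination factor named for binding a proteasome subunit and is not itself a proteasome gene.

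The RNA came from 4 samples of C57BL/6 B cells that had been purified from spleen and cultured for 72 h with LPS, 2 control and 2 cKO. According to the methods of the study, control mice were Nfkbiz fl/Δ, so that both groups lacked 1 allele from the start, and cKO mice were Nfkbiz fl/Δ with Mb1-Cre, a Cre recombinase driven by the *Cd79a* promoter of the B cell lineage. The labels give the LPS dose as 20 mg/ml, whereas the methods print the same figure in μg/ml. Nothing in the labels says that the samples of a group came from separate mice, so p-values measure only the spread between these samples, which may be technical.

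The proteasome degrades proteins that have been tagged with ubiquitin. Its barrel-shaped core particle is built from rings of α subunits, which form the gates, and rings of β subunits, some of which carry the proteolytic sites on the inner face. The regulatory particle caps the barrel: its base holds a ring of ATPases that unfold substrates, and its lid removes the ubiquitin chain. Lymphocytes also express the immunoproteasome, in which inducible catalytic subunits take the place of constitutive ones and alter the peptides presented on MHC class I.

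Promoters of 35 of the 42 genes matched the RefSeq table (build GRCm38.p6). Promoters of 5 genes are printed because they carry motifs known from proteasome genes and belong to subunits whose groups separated (*Psmb5*, *Psma1*) or overlapped (*Psmb6*, *Psmb3*, *Psmd4*) in the comparison of cKO with control. Each run is the 150 bases just before the annotated start, written 5′ to 3′ on the gene's strand, and capitals mark TGACNNNGC or CCAAT on either strand. The first motif is the core of the antioxidant response element, bound by the factors NFE2L1 and NFE2L2, and the second is the CCAAT box bound by NF-Y. *Psmb5* lies at chr14:54617996-54618145 (minus strand), *Psmb6* at chr11:70525207-70525356 (plus), *Psma1* at chr7:114276117-114276266 (minus), *Psmb3* at chr11:97703284-97703433 (plus) and *Psmd4* at chr3:95042615-95042764 (minus).
Psmb5: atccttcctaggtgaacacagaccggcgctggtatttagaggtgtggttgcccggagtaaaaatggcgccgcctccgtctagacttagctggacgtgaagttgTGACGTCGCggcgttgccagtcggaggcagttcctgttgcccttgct
Psmb6: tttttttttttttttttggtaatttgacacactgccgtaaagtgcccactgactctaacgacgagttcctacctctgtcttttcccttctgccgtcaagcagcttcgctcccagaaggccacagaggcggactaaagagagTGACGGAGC
Psma1: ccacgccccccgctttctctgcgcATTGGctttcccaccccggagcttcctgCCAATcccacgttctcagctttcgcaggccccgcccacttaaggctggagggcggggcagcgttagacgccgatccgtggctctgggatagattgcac
Psmb3: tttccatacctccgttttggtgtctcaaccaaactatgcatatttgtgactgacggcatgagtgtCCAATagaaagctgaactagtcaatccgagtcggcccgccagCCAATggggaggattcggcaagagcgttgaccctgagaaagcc
Psmd4: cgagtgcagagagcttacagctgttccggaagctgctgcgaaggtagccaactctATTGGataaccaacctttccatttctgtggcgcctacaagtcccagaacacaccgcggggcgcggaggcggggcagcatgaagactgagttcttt

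In the 250 bases before the start, TGACNNNGC (other strand GCNNNGTCA) occurred in 5 of 37 promoters of these genes, or 13.5%, against 10.2% of 32851 promoters in the table. CCAAT (other strand ATTGG) occurred in 13 of 37, or 35.1%, against 33.8% of all promoters. It was found in 6 of 12 core promoters (50%) and in 4 of 15 regulatory promoters (26.7%). The E-box CACGTG was in 3 promoters (8.11% against 6.02%) and the core site of the respiratory factor NRF1 in 1 (2.70% against 0.782%). No match of 1 motif overlapped a match of another in these genes. These counts are small, and a match describes the letters of the window only.

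The deposited score has no stated unit. Low scores multiplied by exon length fell near whole steps (75.4% to 81.9% of those examined lay within 0.2 of a whole step, against 40% without steps). The step of each sample was the best fit to these same scores within a set range, so the 40% is too low a reference. That range also bounded the inferred depth. The score was read as a level per exon base scaled for library size, which is an inference from the values. On that reading the samples held about 17.5 to 19.9 M reads, and the proteasome genes between about 150 reads (*Psmg4*) and 7838 reads (*Psmd2*) in a sample. Summed scores were 604.2 to 637.6 per sample. *Nfkbiz* scored 0.0241 and 0.0226 in control and 0.0127 and 0.0116 in cKO samples. It was called lower (log2 fold change -0.94, SE 0.096, limma, Benjamini-Hochberg adjusted p = 0.0282). That call was lost without cKO sample 1 (adjusted p = 0.130, limma) and without cKO sample 2 (0.0885), and transcripts of the undeleted exons count in a whole-gene score. All 8 B cell markers were expressed (summed scores 2.45 to 3.001). In cKO samples 6 were lower and 2 higher, with *Cd79a* and *Fcer2a* called lower. *Cd79a*, whose promoter drives the Cre that cKO mice alone carried, scored 0.667 and 0.743 in control and 0.415 and 0.407 in cKO samples. The part of the Cre allele in that score was not tested. Of 12 myeloid markers in the files, the summed score was 0.185 to 0.191 in control and 0.237 to 0.245 in cKO samples, and *S100a9* was at 0 in all 4. Most of that sum was *Itgam* (0.141, 0.150, 0.135 and 0.158 in control samples 1 and 2 and cKO samples 1 and 2). All 6 myeloid markers tested were higher in cKO samples, with a median log2 fold change of 1.07 (2.10-fold), and 1 (*Fcer1g*) was called. Both cKO scores lay above both controls for 5, against 28.1% of all genes tested. Of 11 T and NK cell markers the sum was 0.0329 to 0.0451 in control and 0.0670 to 0.0728 in cKO samples, nearly all of it from *Lck*, the single one tested, and 9 of them stayed under 0.001. Erythroid markers summed to 0.0138 in control sample 1 and 0.00249 to 0.00286 in the others. Plasma cell markers summed to 0.323 to 0.389 in control and 0.292 to 0.344 in cKO samples, and of the 7 tested, 3 were lower and 4 higher (median log2 fold change 0.06), with *Prdm1* and *Derl3* called lower. The part of these other cells in the proteasome values was not tested.

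Transcripts of the constitutive proteasome were measured at slightly lower levels in cKO than in control B cells, without any gene passing the test. Of the 42 genes, 40 had a log2 fold change below 0 and 2 above 0 (*Psme4* and *Psmf1*). The median log2 fold change was -0.20 (0.871-fold), against -0.01 (0.993-fold) over all 9727 genes tested. At the median these genes scored above 85.7% of all genes tested, and highly expressed genes were lower as a whole. Over the 1933 genes that scored above 0.05 in at least 1 sample the median was -0.07. It was -0.20 for the 28 of the 42 among them. At an unadjusted p under 0.05 in that limma fit, 11 of the 28 were lower, against 19.5% of the 1933. At an adjusted p under 0.05 (limma, Benjamini-Hochberg over all genes tested) 0 of the 42 were lower and 0 higher, where 1.25% and 0.812% of all genes tested were called. At an unadjusted p under 0.05, 16 of the 42 were lower, against 11.5% of all genes, and 0 were higher, against 10.8%. Both cKO samples lay below both control samples for 26 of the 42 (61.9%), against 30.1% of all genes tested. Both cKO samples lay above both controls only for *Psme4*, against 28.1% of all genes tested, and the groups overlapped for the other 15. The unadjusted count moved when a sample was left out, which also leaves fewer degrees of freedom. It was 1 without cKO sample 1 (against 5.34% of all genes), 3 without control sample 1 (8.00%), 11 without cKO sample 2 (10.1%) and 19 without control sample 2 (14.2%). In bulk samples, fewer cells of a type and less RNA per cell cannot be told apart.

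**Figure D1:**
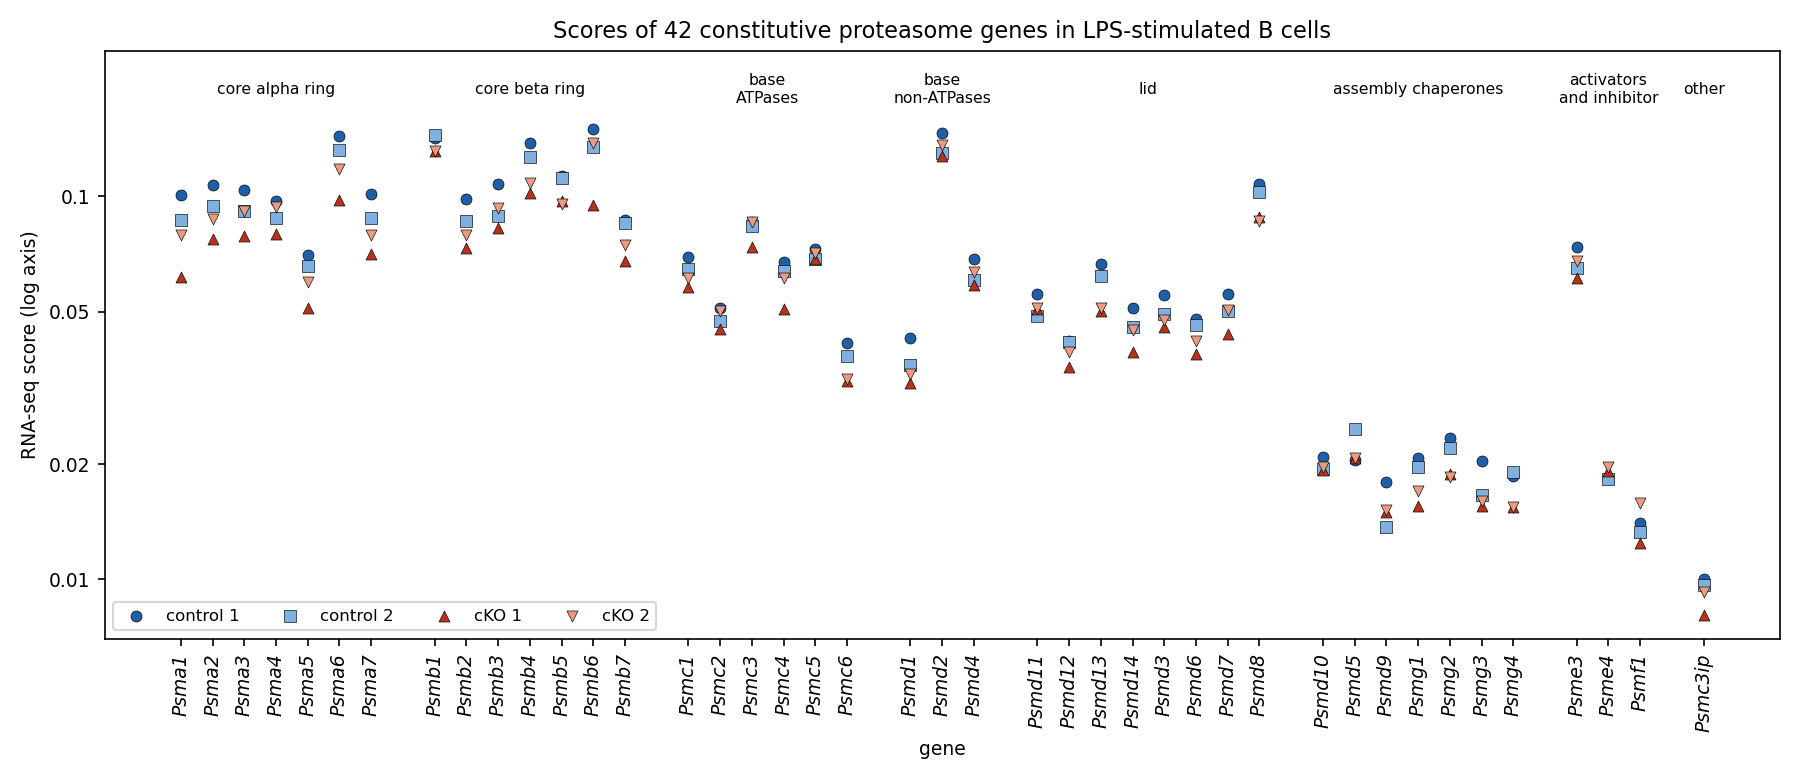
Score of each of the 42 genes (log axis) in the 4 samples, with 1 symbol per sample and the genes grouped by their place in the proteasome. Core subunits lie between 0.0512 and 0.1500, chaperones near 0.02, and cKO sample 1 (dark triangles) is the lowest symbol for 13 of the 14 core genes.

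The samples of each group also differed from each other in the same direction across most of these genes. Control sample 1 scored above control sample 2 for 39 of the 42, against 48.1% of all genes tested. Sample 1 of the cKO group scored below cKO sample 2 for 38 of the 42, against 53.7% of all genes. The median gap between the control samples was 0.11 on the log2 scale and that between the cKO samples was -0.11 (sample 1 minus sample 2 in both), which together compare with the median difference of -0.20 between the groups. Geometric means over the 42 genes, relative to the control mean, were 1.04 and 0.960 in control samples 1 and 2 and 0.840 and 0.917 in cKO samples 1 and 2. The order control 1, control 2, cKO 2, cKO 1 from high to low, which was picked after the values had been seen, held for 21 genes (50%), against 15.6% of all genes tested.

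The 14 core particle genes were each lower on average in cKO samples, with a median log2 fold change of -0.28 (0.824-fold). Both cKO samples lay below both controls for 11 of them (78.6%), against 30.1% of all genes tested. In limma, 9 were lower at an unadjusted p under 0.05, against 11.5% of all genes tested. In the α ring the median log2 fold change was -0.30, the groups separated for 6 of 7 genes, and 5 had an unadjusted p under 0.05. *Psma1*, an α ring subunit (chr7:121408120-121419632, minus strand, build mm9), scored 0.101 and 0.0866 in control and 0.0617 and 0.0792 in cKO samples. Its cKO scores differed from each other by 0.36 on the log2 scale, and its log2 fold change of -0.42 (SE 0.145, 95% interval -0.77 to -0.06, limma, Benjamini-Hochberg adjusted p = 0.187) was the lowest of the 42. Without cKO sample 1 it was -0.24. *Psma4*, the α ring gene with the smallest difference (chr9:54798597-54805837, plus strand), scored 0.0971 and 0.0877 in control and 0.0798 and 0.0940 in cKO samples. Its groups overlapped, and its log2 fold change was -0.09 (adjusted p = 0.652, limma). *Psma5*, which had the lowest level per length of the core genes in each of the 4 samples, scored 0.0705 and 0.0659 in control and 0.0512 and 0.0599 in cKO samples (log2 fold change -0.30, adjusted p = 0.189, limma, and -0.19 without cKO sample 1).

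In the β ring the median log2 fold change was -0.27. Both cKO samples lay below both controls for 5 of its 7 genes (71.4%), against 30.1% of all genes tested. In limma, 4 were lower at an unadjusted p under 0.05, against 11.5% of all genes tested. The 3 catalytic subunits of the ring differed in how far their replicates lay apart. *Psmb5*, which carries the chymotrypsin-like site (chr14:55232644-55236851, minus strand, build mm9), scored 0.113 and 0.111 in control and 0.0972 and 0.0955 in cKO samples. The samples of each group lay close together and the groups were apart, with a log2 fold change of -0.22 (SE 0.076, 95% interval -0.41 to -0.03, unadjusted p = 0.0281, adjusted p = 0.184, limma). *Psmb7*, which carries the trypsin-like site (chr2:38443556-38499607, minus strand), scored 0.0867 and 0.0850 in control and 0.0680 and 0.0747 in cKO samples (log2 fold change -0.27, SE 0.087, adjusted p = 0.166, limma), again with the groups apart. *Psmb6*, which carries the caspase-like site (chr11:70338869-70341360, plus strand), scored 0.1500 and 0.135 in control and 0.0951 and 0.137 in cKO samples. Its cKO sample 2 lay between the controls, so that the log2 fold change of -0.32 (SE 0.178, 95% interval -0.75 to 0.12, adjusted p = 0.346, limma) was -0.05 without cKO sample 1 and -0.58 without cKO sample 2. Its promoter carries TGACNNNGC as that of *Psmb5* does, in the bases next to the start.

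Among the noncatalytic β subunits, *Psmb4* (chr3:94688015-94690883, minus strand, build mm9) had the lowest log2 fold change. It scored 0.138 and 0.127 in control and 0.102 and 0.108 in cKO samples, with a log2 fold change of -0.33 (SE 0.086, 95% interval -0.55 to -0.12, adjusted p = 0.118, limma). *Psmb1*, the core gene of the highest level per length on average (chr17:15612685-15635240, minus strand), scored 0.142 and 0.145 in control and 0.131 and 0.131 in cKO samples. Its groups separated by a small margin, with a log2 fold change of -0.13 (adjusted p = 0.370, limma). *Psmb3*, printed above for its pair of CCAAT boxes, scored 0.108 and 0.0890 in control and 0.0825 and 0.0931 in cKO samples, and its groups overlapped (log2 fold change -0.16, adjusted p = 0.466, limma).

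**Figure D2:**
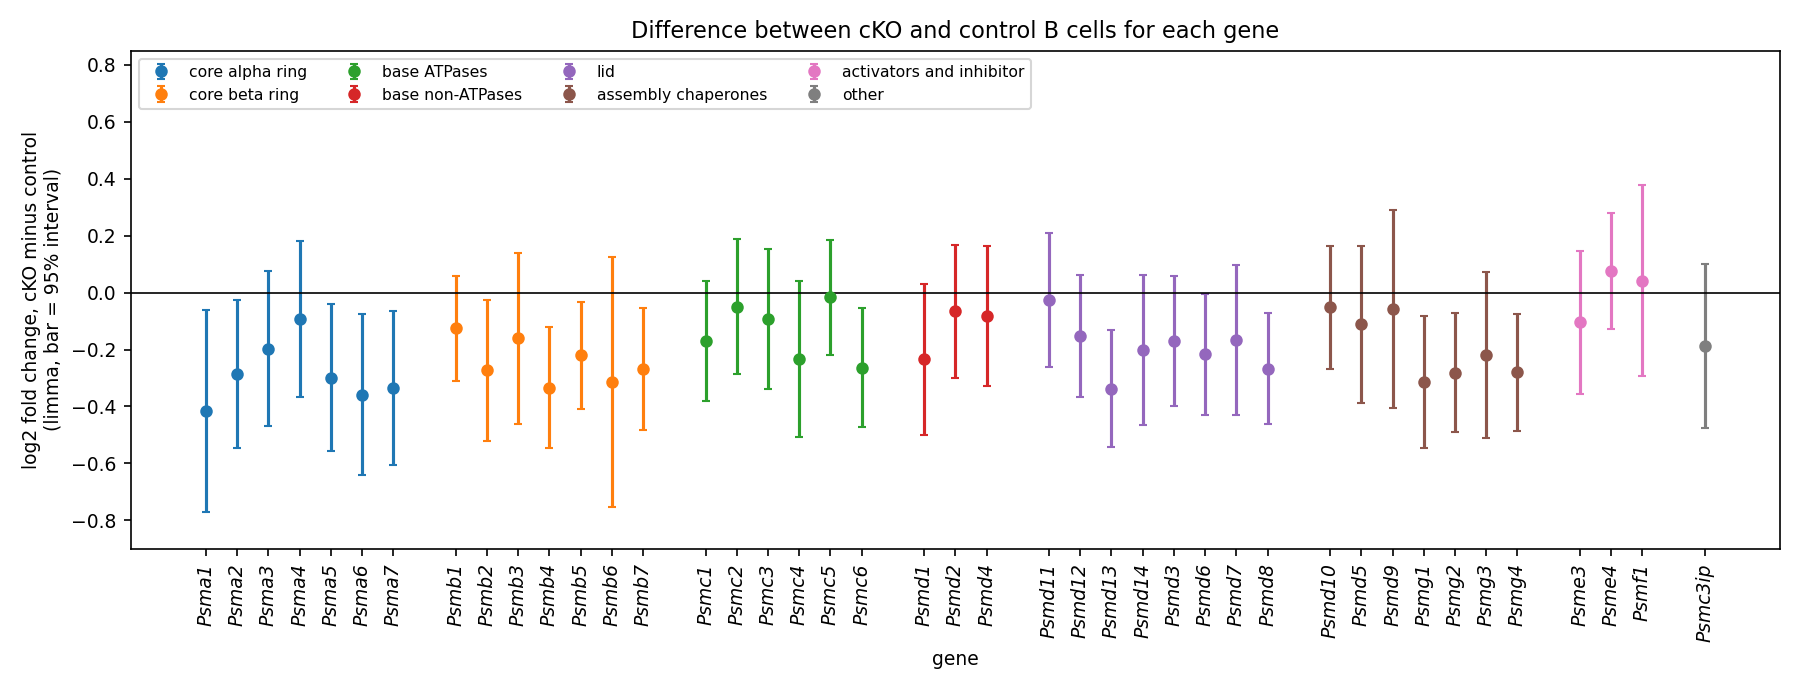
Log2 fold change (cKO minus control) of each gene from limma with its 95% interval, coloured by place in the proteasome. Points lie below 0 for 40 of 42 genes, from -0.42 (*Psma1*) to 0.08 (*Psme4*), and most intervals reach 0.

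The 17 regulatory particle genes were also each lower on average in cKO samples, by a smaller median log2 fold change of -0.17 (0.889-fold). Both cKO samples lay below both controls for 10 of them (58.8%), against 30.1% of all genes tested. In limma, 4 were lower at an unadjusted p under 0.05, against 11.5% of all genes tested. The 6 ATPases of the base had a median log2 fold change of -0.13, with 3 separated and 1 at an unadjusted p under 0.05. That gene was *Psmc6* (chr14:45949504-45969367, plus strand, build mm9), which scored 0.0413 and 0.0383 in control and 0.0330 and 0.0333 in cKO samples (log2 fold change -0.26, SE 0.085, adjusted p = 0.167, limma). *Psmc5*, at the other end of the ATPase ring's differences (chr11:106117468-106124434, plus strand), scored 0.0730 and 0.0687 in control and 0.0688 and 0.0712 in cKO samples. Both cKO scores fell between the control scores, and the log2 fold change was -0.02 (95% interval -0.22 to 0.19, adjusted p = 0.922, limma), with a sign that depended on the scaling and on single samples.

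Over the 3 base subunits without ATPase activity the median log2 fold change was -0.08. The groups separated for 1 (33.3%), near the 30.1% of all genes tested with both cKO samples below both controls. *Psmd1*, a scaffold of the base (chr1:87960962-88059363, plus strand, build mm9), scored 0.0428 and 0.0362 in control and 0.0326 and 0.0343 in cKO samples (log2 fold change -0.23, adjusted p = 0.268, limma, and -0.11 without control sample 1). *Psmd2*, the other large scaffold, to which ubiquitin shuttles dock (chr16:20651725-20663487, plus strand), had the highest level per length of the particle in each of the 4 samples. It scored 0.146 and 0.130 in control and 0.127 and 0.136 in cKO samples, so its groups overlapped (log2 fold change -0.07, adjusted p = 0.703, limma), and its sign turned under quantile normalization and without control sample 1. *Psmd4*, a ubiquitin receptor, scored 0.0687 and 0.0605 in control and 0.0586 and 0.0633 in cKO samples, also with overlap (log2 fold change -0.08, adjusted p = 0.652, limma).

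In the lid, the median log2 fold change over 8 genes was -0.19. Both cKO samples lay below both controls for 6 (75%), against 30.1% of all genes tested. In limma, 3 were lower at an unadjusted p under 0.05, against 11.5% of all genes tested. *Psmd13*, a structural lid subunit (chr7:148067867-148084542, plus strand, build mm9), scored 0.0664 and 0.0618 in control and 0.0502 and 0.0511 in cKO samples. Its log2 fold change of -0.34 (SE 0.083, 95% interval -0.54 to -0.13, unadjusted p = 0.00713) had the lowest adjusted p of the 42 genes, 0.113 in limma. *Psmd8*, also a lid subunit, scored 0.108 and 0.102 in control and 0.0881 and 0.0865 in cKO samples (log2 fold change -0.27, adjusted p = 0.143, limma). *Psmd14*, the deubiquitinase of the lid, scored 0.0512 and 0.0456 in control and 0.0393 and 0.0448 in cKO samples (log2 fold change -0.20, adjusted p = 0.322, limma). *Psmd11*, which helps to hold the lid on the core, scored 0.0555 and 0.0486 in control and 0.0509 and 0.0511 in cKO samples. Its cKO scores lay between the controls, with a log2 fold change of -0.03 (adjusted p = 0.892, limma) whose sign turned under quantile normalization and without control sample 1.

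Set side by side in each sample, the geometric mean score per length of the core exceeded that of the regulatory particle 1.75- and 1.73-fold in control samples and 1.57- and 1.67-fold in cKO samples. On the log2 scale the core minus regulatory difference was 0.80 and 0.79 in control and 0.65 and 0.74 in cKO samples. The groups did not overlap, and the cKO samples were lower by 0.10 on average, with a range of -0.15 to -0.06 when each sample was left out in turn. Under quantile normalization this difference between the groups was -0.07. With 2 samples against 2, an exact permutation test cannot give a two-sided p below 0.33, and no test was made of this difference. Relative to the control mean, the core stood at 1.05 and 0.954 in control and 0.780 and 0.890 in cKO samples, and the regulatory particle at 1.04 and 0.960 in control and 0.863 and 0.927 in cKO samples. The gap between the cKO samples was therefore the larger for the core, and cKO sample 1 was the lowest sample for both particles.

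Levels were also less even in the regulatory particle than in the core. The SD of the log2 score over the 14 core genes was 0.31 to 0.34 per sample, and over the 17 regulatory genes 0.49 to 0.52. The highest mean score was 2.22 times the lowest in the core (0.137 for *Psmb1*, 0.0619 for *Psma5*) and 3.70 times in the regulatory particle (0.135 for *Psmd2*, 0.0365 for *Psmd1*). Neighbours in the order of core levels often lay closer than the replicates of either, and the first place was held by *Psmb6* in control sample 1 and cKO sample 2 and by *Psmb1* in the other two. The log2 scores of 2 samples correlated with Pearson's r from 0.884 to 0.967 over the 14 core genes and from 0.976 to 0.992 over the 17 regulatory genes, as a description across genes that share length and library effects. The 42 genes lie on 16 chromosomes, 9 of them on chromosome 11, and so are mostly not neighbours.

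**Figure D3:**
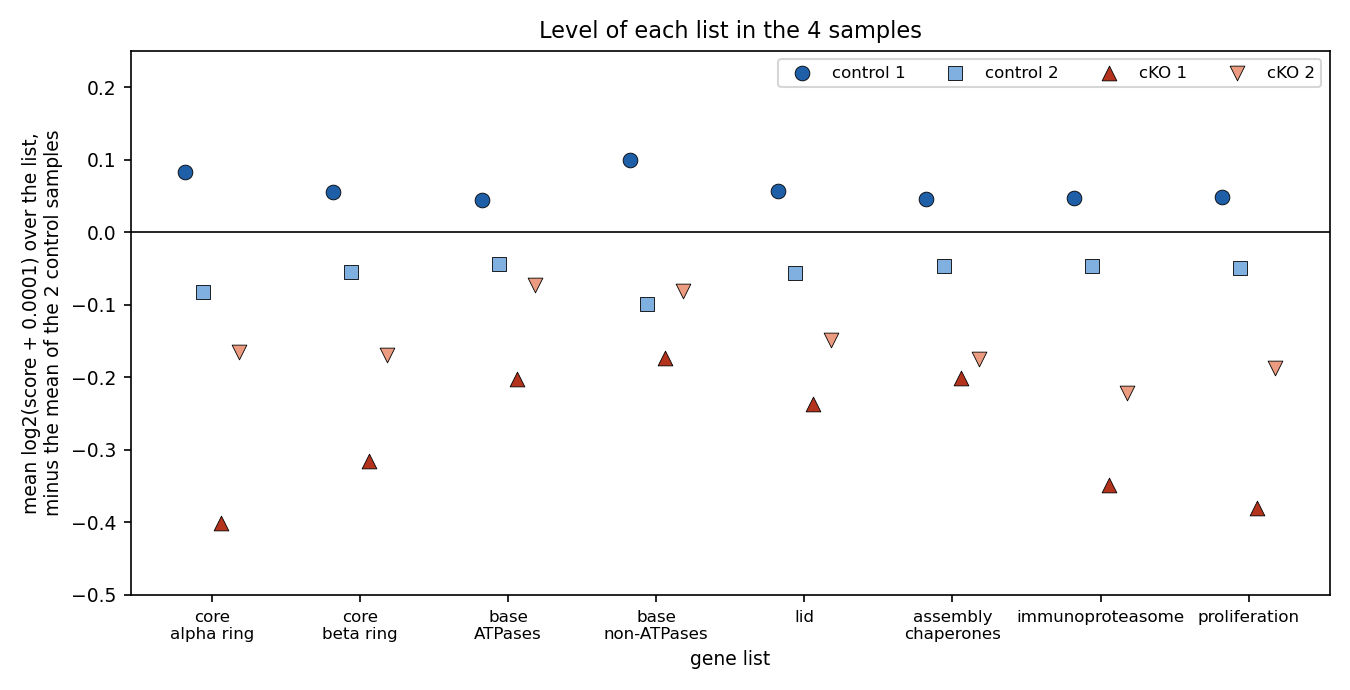
Mean of log2(score + 0.0001) over each gene list in the 4 samples, minus the mean of the 2 control samples. The cKO samples lie below both controls for each list except the base non-ATPases, where cKO sample 2 lies between the controls, and cKO sample 1 is lowest throughout.

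Assembly chaperones, which guide the rings together and leave the finished particle, were expressed at lower levels per length (mean scores 0.0155 to 0.0217), and the median log2 fold change of the 7 genes was -0.22. The groups separated for the 4 chaperones of the core, *Psmg1* to *Psmg4*, and for none of the 3 of the base, *Psmd5*, *Psmd9* and *Psmd10*. Over the 7 genes that is 57.1%, against 30.1% of all genes tested with both cKO samples below both controls. The contrast between core and base chaperones rests on few genes and was not tested. *Psmg1* (chr16:96201540-96212567, minus strand, build mm9) scored 0.0208 and 0.0197 in control and 0.0155 and 0.0170 in cKO samples (log2 fold change -0.31, SE 0.094, adjusted p = 0.146, limma). *Psmg4* scored 0.0186 and 0.0190 in control and 0.0155 and 0.0155 in cKO samples (log2 fold change -0.28, adjusted p = 0.146, limma), on the fewest reads of the 42 genes. *Psmd10*, a base chaperone on the X chromosome, scored 0.0209 and 0.0195 in control and 0.0193 and 0.0196 in cKO samples (log2 fold change -0.05, adjusted p = 0.748, limma). *Psmd9* scored 0.0180 and 0.0137 in control and 0.0150 and 0.0152 in cKO samples, so the gap between its controls, 0.39 on the log2 scale, was wider than the log2 fold change of -0.06.

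Over the 3 remaining regulators of the core the median log2 fold change was 0.04, with none at an unadjusted p under 0.05. *Psme3*, the nuclear activator PA28γ (chr11:101177527-101184851, plus strand, build mm9), scored 0.0737 and 0.0651 in control and 0.0612 and 0.0678 in cKO samples (log2 fold change -0.10, adjusted p = 0.568, limma, and -0.02 without control sample 1), and its groups overlapped. *Psme4*, the large activator PA200 (chr11:30671726-30780361, plus strand), scored 0.0185 and 0.0183 in control and 0.0192 and 0.0197 in cKO samples. It was the single gene with both cKO scores above both controls, by a log2 fold change of 0.08 (95% interval -0.13 to 0.28, adjusted p = 0.609, limma). *Psmf1*, the inhibitor PI31, scored 0.0140 and 0.0133 in control and 0.0124 and 0.0159 in cKO samples (log2 fold change 0.04, adjusted p = 0.874, limma). *Psmc3ip*, the meiotic factor, scored 0.0101 and 0.0097 in control and 0.0081 and 0.0093 in cKO samples (log2 fold change -0.19, adjusted p = 0.388, limma).

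The inducible counterparts that the selection left out were compared with the constitutive catalytic subunits. *Psmb9*, which replaces *Psmb6*, scored 0.106 and 0.105 in control and 0.0566 and 0.0677 in cKO samples (log2 fold change -0.77, SE 0.107, limma, Benjamini-Hochberg adjusted p = 0.0370). Its adjusted p ran from 0.0153 to 0.205 over the alternatives and was 0.192 without cKO sample 1 and 0.0783 without cKO sample 2. The other 4 did not pass. *Psmb8*, which replaces *Psmb5*, had a log2 fold change of -0.23 (adjusted p = 0.233, limma, and -0.13 without control sample 1) and *Psmb10*, which replaces *Psmb7*, one of -0.31 (0.157). The activator genes *Psme1* and *Psme2* had log2 fold changes of -0.06 (0.676) and -0.05 (0.725).

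As a ratio of scores, *Psmb9* over *Psmb6* was 0.705 and 0.780 in control and 0.596 and 0.493 in cKO samples, 0.730-fold in cKO with no overlap. *Psmb8* over *Psmb5* was 1.64 and 1.44 in control and 1.49 and 1.57 in cKO samples, and the groups overlapped. *Psmb10* over *Psmb7* was 0.515 and 0.491 in control and 0.485 and 0.493 in cKO samples, also with overlap. On the per-length reading, the chymotrypsin-like pair was the one in which the inducible transcript exceeded the constitutive one in each of the 4 samples.

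**Figure D4:**
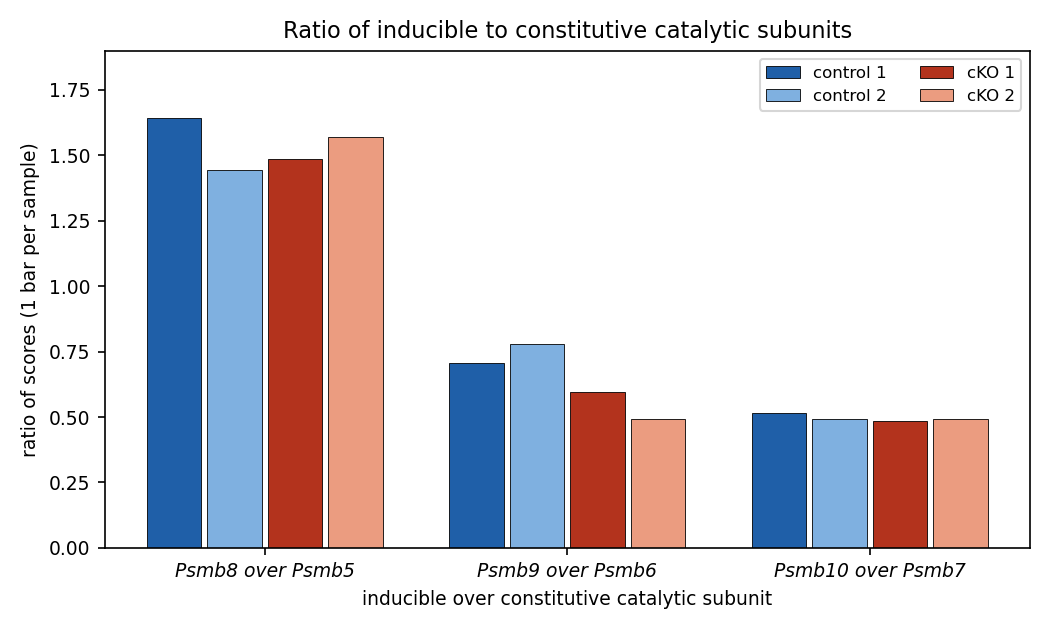
Ratio of the score of each inducible catalytic subunit to that of the constitutive subunit it replaces, with 1 bar per sample and no error bars. *Psmb9* over *Psmb6* is 0.705 and 0.780 in control and 0.596 and 0.493 in cKO samples, whereas the groups overlap for the other pairs.

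Other genes of the pathway, whose symbols the selection does not match, were read from a list of 28 subunits, shuttles and regulators, of which 23 were in the files and 22 were tested. Of these, 12 were lower and 10 higher, with a median log2 fold change of -0.03, and 0 passed the adjusted threshold in limma. At an unadjusted p under 0.05, 2 were lower (*Pomp* and *Txnl1*), where 11.5% of all genes tested were. Another 2 were higher (*Nfe2l2* and *AI314180*), where 10.8% were. Both cKO samples lay below both controls for 7 of the 22 (31.8%) and above for 6, against 30.1% and 28.1% of all genes. These counts are near the shares over all genes. *Adrm1*, a ubiquitin receptor of the base, scored 0.0685 and 0.0668 in control and 0.0600 and 0.0720 in cKO samples (log2 fold change -0.04, adjusted p = 0.844, limma). *Shfm1*, the small lid subunit also called Sem1, scored 0.158 and 0.146 in control and 0.129 and 0.142 in cKO samples (log2 fold change -0.17, adjusted p = 0.332, limma). *Pomp*, the maturation factor of the core, scored 0.1701 and 0.152 in control and 0.138 and 0.138 in cKO samples, with separated groups (log2 fold change -0.22, unadjusted p = 0.0456, adjusted p = 0.217, limma). *Nfe2l1*, a transcription factor that induces proteasome genes when proteasome activity is low, scored 0.0301 and 0.0354 in control and 0.0376 and 0.0314 in cKO samples, with overlap (log2 fold change 0.07, adjusted p = 0.756, limma). *Nfe2l2*, the regulator of the antioxidant response, scored 0.0140 and 0.0140 in control and 0.0181 and 0.0162 in cKO samples, with separated groups (log2 fold change 0.29, unadjusted p = 0.0236, adjusted p = 0.171, limma). Of 6 ubiquitin and ubiquitin-activating enzyme genes, 3 were lower, 3 higher and 0 called, and 0 of the 6 had an unadjusted p under 0.05.

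A list of 16 proliferation genes moved alongside the core particle between samples. Relative to the control mean, its geometric mean was 1.03 and 0.967 in control and 0.768 and 0.878 in cKO samples, against 1.05, 0.954, 0.780 and 0.890 for the core. The same order of samples was seen in other lists. The 5 genes left out by name stood at 1.03, 0.968, 0.785 and 0.858, and the regulatory particle at 1.04, 0.960, 0.863 and 0.927. All 16 had a log2 fold change below 0, with a median of -0.28. Both cKO samples lay below both controls for 14 (87.5%), against 30.1% of all genes tested. In limma, 9 were lower at an unadjusted p under 0.05, against 11.5% of all genes, and 0 passed the adjusted threshold. Summed proliferation scores were 1.56 and 1.48 in control and 1.17 and 1.36 in cKO samples. The part of proliferation in the proteasome values was not tested.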

How the data were processed

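RNA-seq was made from poly(A) RNA of 2 control and 2 cKO samples. Reads were aligned by the authors to the mm9 genome with TopHat (TopHat2 2.0 in the submitters' processing notes), filtered on base quality and cleared of rRNA and tRNA by means of BED Tools. The deposited score of each gene has no stated unit, and the step from mapped reads to score is not given in the sources used here. Depth was inferred from steps in low scores times exon length, and read numbers from the longest coding transcript in an mm9 annotation. Such read numbers limit only the counting error.

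Groups were taken from the labels. Genes that scored 0.005 or more in any sample were fitted with limma 3.58.1 in R 4.3.3 (variance trend, no covariate) on log2(score + 0.0001), which understates changes of low genes. P-values were adjusted by Benjamini-Hochberg over 9727 genes at a threshold of 0.05. The fit was tested on simulated data. No test was made over a gene list.

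The proteasome genes and the lists were chosen with earlier results of these data known. Values are given by sample for the catalytic subunits, the lowest and highest log2 fold change of each structural group, the highest and lowest level of each particle, the 3 widest gaps within a group, the immunoproteasome genes, *Nfkbiz* and 4 partner genes. *Psmb3*, *Psmd4*, *Psmd8*, *Psmd14*, *Psmg4*, *Psmf1*, *Nfe2l2*, *Txnl1*, *AI314180* and the marker genes named were added after their values had been seen. Alternatives changed the pseudocount, the filter, the variance trend and the scaling, added a replicate block, or left out 1 sample. The value of 1 marker gene is not reported here.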

Additional observations from a re-analysis of the deposited data

How the results depend on the processing

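None of the 42 genes passed the adjusted threshold in limma under any alternative run, and the medians of all 42 genes, the core and the regulatory particle stayed below 0 when each sample was left out (-0.26 to -0.12, -0.36 to -0.20 and -0.24 to -0.10). Samples with the same replicate number did not deviate in the same direction (correlation of same-numbered deviations over 9727 genes, Pearson -0.15 and Spearman -0.29). Such a correlation cannot show whether the samples were collected as pairs. With the replicate block, 0 of the 42 were called. Of all genes, 180 and 177 were called lower and higher, against 122 and 79 without it. At an unadjusted p under 0.05 (limma), 6 of the 42 were lower with the block, against 9.04% of all genes. Without it 16 were, against 11.5%. With the crossed replicate block, added after seeing the data, 0 of the 42 were called, and 230 and 212 of all genes. At an unadjusted p under 0.05 (limma), 21 of the 42 were then lower, against 15.0% of all genes. Over all genes, 0 and 0 were called without a filter, 22 and 11 without the variance trend, and 0 and 0 without cKO sample 1 or without cKO sample 2. With a minimum score of 0.05, which kept 28 of the 42 genes, both cKO samples lay below both controls for 17 and above for 0. The matching share over all genes kept is not given here. Leaving out 1 sample makes such a separation easier for any gene. Without cKO sample 1, 26 of the 42 (61.9%) lay below, against 37.1% of all genes tested. It was 27 (64.3%) without control sample 1, against 40.3%, and 37 (88.1%) without cKO sample 2, against 43.0%. Without control sample 2 it was 39 (92.9%), against 42.7%. From 1 to 4 lay above, for which the share over all genes is not given here. The log2 ratio of *Psmb10* over *Psmb7* was -0.04, and -0.090 under quantile normalization, where that of *Psmb8* over *Psmb5* turned to 0.0025 from -0.01 (-0.10 to 0.081 with 1 sample left out). Only some of the single genes were followed under the alternatives, without those added after their values had been seen. Among the genes followed, quantile normalization also turned the log2 fold changes of *Psmc5* (0.025), *Psmd2* (0.011), *Psmd11* (0.014), *Psme1* (0.039) and *Adrm1* (0.0068). Under it the median log2 fold changes were smaller, at -0.17 for all 42 genes, -0.22 for the core and -0.14 for the regulatory particle. The core minus regulatory difference between the groups was -0.07 under it, against -0.10 in the main run. With 1 sample left out, signs turned among the genes followed for *Psmc5* (-0.060 to 0.027), *Psmd2* (-0.15 to 0.021), *Psmd11* (-0.12 to 0.070) and *Psmd10* (-0.10 to 0.00070). They also turned for *Psmd9* (-0.25 to 0.14), *Psma4* (-0.21 to 0.027), *Psme2* (-0.11 to 0.0027), *Adrm1* (-0.17 to 0.090) and *Nfe2l1* (-0.056 to 0.20). This list is not complete for the 42 genes. *Psmf1*, not followed, scored 0.0124 in cKO sample 1, below both controls (0.0140 and 0.0133). The cKO mean of *Psmd4* (0.0610), also not followed, lay above control sample 2 (0.0605). *Psmb9* and *Nfkbiz* lost their calls without a filter (adjusted p = 0.205 and 0.203, limma), without the variance trend (0.0741 and 0.0509) and when cKO sample 1 or cKO sample 2 was left out (0.192 and 0.130, 0.0783 and 0.0885). The cause was not tested. Of 350 values of the single genes followed under alternatives, 326 kept their direction and side of the threshold, and 16 turned sign. Of those genes, *Psmb9* and *Nfkbiz* alone were called in the main run, so the others had no call to lose. The count does not cover all of the 42 genes. With 1 sample left out, the lone sample of a group is assumed to vary like the other group. Depth limits *Psmg4* most, at about 150 reads.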
